A study of Rattus norvegicus with 20 samples.

Results

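Vegfa, its receptors Flt1 and Kdr, and the co-receptor Nrp1 were followed in the heart ventricles of rats with and without Vegfb, to ask whether loss of this ligand came with a change in the other genes of the same signalling system. The 4 genes were chosen by name from the VEGF pathway, by a rule that uses no measured value. Earlier results of these data were known when the genes were chosen. They are 4 of the 24059 gene IDs in the count table, and 0 of their IDs were missing from it. All 4 passed the filter on low counts, which left 14293 genes tested.

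RNA was sequenced from 20 male Sprague Dawley rats, 5 in each of 4 groups, with 1 library per rat and an age of 9 weeks on the sample labels. WT control and WT diabetic rats carried intact Vegfb. VegfbKO control and VegfbKO diabetic rats were global knockouts, made with zinc-finger nucleases that placed a lacZ cassette in Vegfb. Diabetes was induced by intravenous streptozotocin at 55 mg/kg, which destroys pancreatic beta cells and so lowers insulin. Hearts of the diabetic rats were taken on day 4 of diabetes, together with those of littermate controls that were not diabetic. Because the knockout was global, an effect in the heart and an effect from other organs cannot be told apart. In bulk ventricle, fewer cells of a type and less RNA per cell cannot be told apart either.

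VEGFA is a secreted growth factor that cardiomyocytes and other cells release and that endothelial cells read through the receptors FLT1 and KDR, while VEGFB binds FLT1 but not KDR. KDR carries most of the mitogenic and permeability signal, and FLT1, which holds VEGFA tightly and signals weakly, also occurs as a soluble form that traps ligand. NRP1 is a co-receptor that strengthens KDR signalling and also binds class III semaphorins. The counts are per gene, so soluble and membrane-bound FLT1 were not separated.

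The total estimated count per library ranged from 7220787 to 26664437, with a median of 20746769, and was lowest in VegfbKO diabetic replicate 1 and in WT control replicate 2, at 7314315. Counts ranged from 1836 to 13114 per library for Vegfa, from 722 to 4952 for Nrp1, from 384 to 3114 for Flt1 and from 565 to 2740 for Kdr. Counting error was therefore small for all 4 genes. A pair of libraries stood apart. In WT diabetic replicate 2 and VegfbKO diabetic replicate 1, 2 gene IDs took 29.9% and 31.5% of the total count, where they took from 8.31% to 15.6% in the other 18 libraries. Levels are given as CPM, the count of a gene scaled to a common library size, after TMM scaling, which allows for such IDs through a factor of 0.729 in the first and 0.693 in the second of these libraries. Each call made for the 4 genes is given with and without both.

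The files give gene IDs without names, so the ID of Vegfb was not looked up. ENSRNOG00000021156, singled out after its values were seen, separated the genotypes in all 20 libraries. Its level was 138 ± 5.23 CPM in WT control and 107 ± 9.97 CPM in WT diabetic hearts (SD, n = 5 each). In VegfbKO hearts it was 0.505 ± 0.455 CPM in controls and 0.328 ± 0.222 CPM in diabetic rats (SD, n = 5 each). Since its name was not looked up, these values are no check of the genotype labels.

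A gene was called when edgeR's quasi-likelihood test gave a Benjamini-Hochberg adjusted p under 0.05 over all 14293 genes together with an absolute log2 fold change over 0.27. For the interaction the adjusted p alone was used. Intervals are 95% intervals of the log2 fold change.

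Vegfa (ENSRNOG00000019598), the ligand, fell with diabetes in both genotypes and was not called between genotypes. Its gene starts on chromosome 9, and the RefSeq window from 250 bases before to 50 after the start is shown from the GRCr8 build, plus strand, chr9:22452604-22452903. It is printed because Vegfa was one of the pair of genes that fell with diabetes. Capitals mark the GC box GGGCGG, found 3 times, at positions -84, -73 and -58 from the start.
Vegfa: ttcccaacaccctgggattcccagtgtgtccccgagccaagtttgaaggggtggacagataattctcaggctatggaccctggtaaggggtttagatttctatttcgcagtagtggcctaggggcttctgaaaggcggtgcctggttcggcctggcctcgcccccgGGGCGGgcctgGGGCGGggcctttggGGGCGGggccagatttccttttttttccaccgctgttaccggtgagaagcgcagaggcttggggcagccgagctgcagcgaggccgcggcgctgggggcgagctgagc
Among the 33469 promoter windows of the same length, 33.1% held a GC box on either strand. The core of the hypoxia response element, ACGTG, was searched on both strands as well and was in 19.3% of all windows. It was found 0 times in the windows of Vegfa, Nrp1, Flt1 and Kdr, which says only that these letters are not in these stretches. RefSeq lists 2 windows for Vegfa, and the one nearest the start of the gene was used.

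In WT control hearts the Vegfa level was 460, 490, 457, 419 and 476 CPM in replicates 1 to 5. In WT diabetic hearts it was 323, 330, 331, 301 and 309 CPM. Every WT diabetic heart lay below every WT control heart. In VegfbKO control hearts the level was 480, 450, 473, 521 and 562 CPM, and in VegfbKO diabetic hearts 367, 354, 363, 420 and 457 CPM. These groups overlapped narrowly, because diabetic replicate 5 exceeded control replicate 2. As CPM of the whole count without TMM the overlap was wider, at 443 to 554 in control and 254 to 509 in diabetic hearts. It was also wider with the 2 high IDs removed and no TMM, at 510 to 644 and 371 to 572. The order of the group means was VegfbKO control (497 ± 44.4 CPM), WT control (460 ± 26.4 CPM), VegfbKO diabetic (392 ± 44.5 CPM) and WT diabetic (319 ± 13.2 CPM, SD, n = 5 each). The first 2 groups in this order did not differ beyond the spread between rats.

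**Figure D1:**
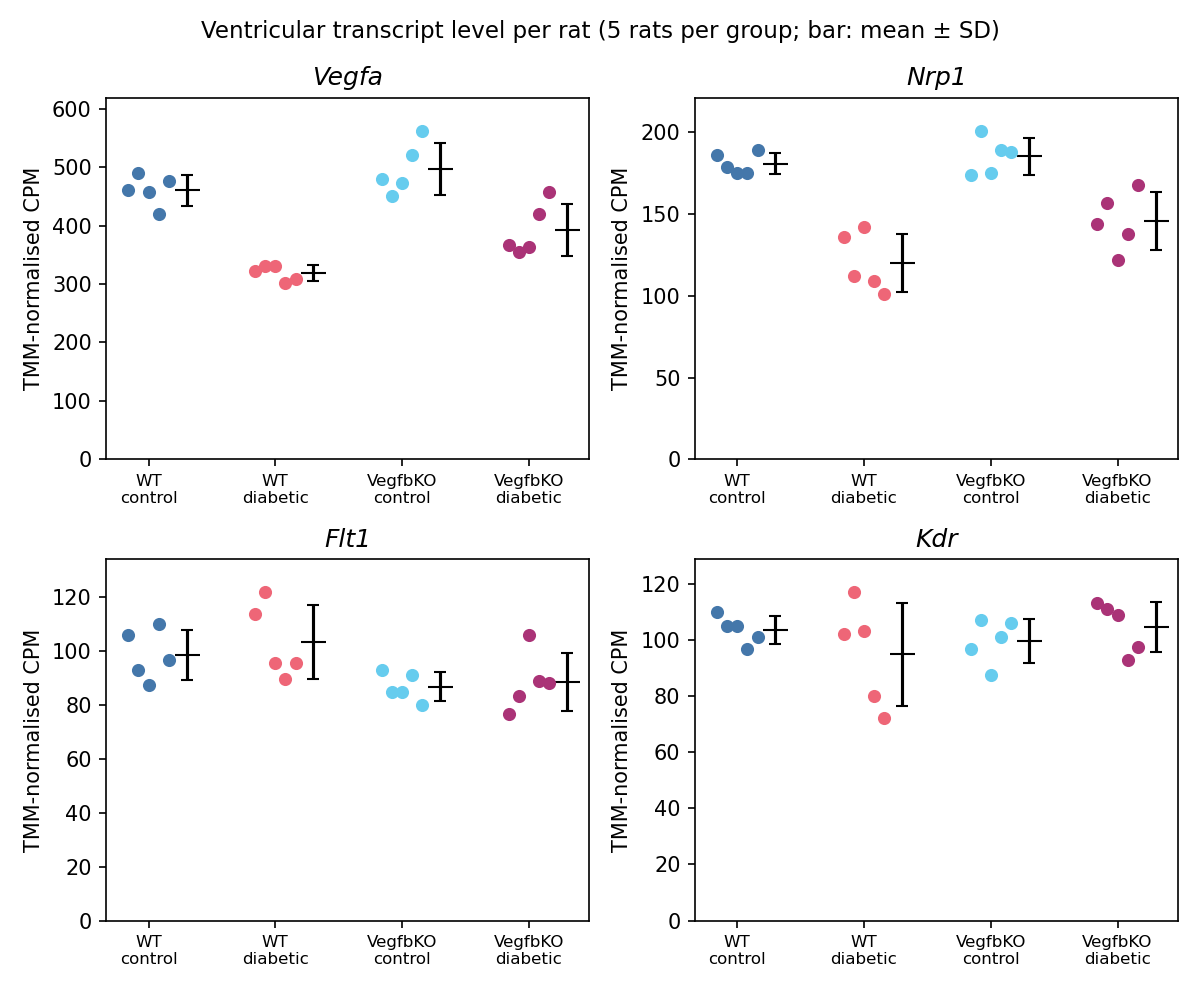
TMM-normalised CPM of Vegfa, Nrp1, Flt1 and Kdr (vertical axes, each from 0) in the 4 groups, 1 point per rat, with the mean and SD of 5 rats beside the points. Vegfa and Nrp1 are lower in the diabetic groups, with Vegfa at 301 to 331 in WT diabetic and 419 to 490 in WT control hearts, while Flt1 and Kdr overlap between all groups.

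With diabetes, Vegfa fell by 30.8% in WT hearts, a log2 fold change of -0.53 (SE 0.08, interval -0.70 to -0.36, edgeR adjusted p = 7.21e-05). In VegfbKO hearts it fell by 21.1%, a log2 fold change of -0.34 (SE 0.08, interval -0.51 to -0.18, edgeR adjusted p = 0.00838). Of all genes tested, 13.1% were called in WT and 7.84% in VegfbKO hearts in either direction, and 7.07% and 4.21% were called lower. The number behind the VegfbKO share, 1121 genes, was 643 without VegfbKO diabetic replicate 3. In WT, 2 of the 4 genes, Vegfa and Nrp1, were called lower, and the same 2 were called lower in VegfbKO. Groups that did not overlap were seen for 9.38% of all genes in WT and for 8.21% in VegfbKO hearts. A call of lower in both genotypes, as Vegfa and Nrp1 had, was made for 3.05% of the genes tested. Both contrasts are of separate rats, 5 against 5 in each genotype. Without both libraries that stood apart, the Vegfa log2 fold change was -0.55 in WT (edgeR adjusted p = 0.000142) and -0.33 in VegfbKO (edgeR adjusted p = 0.0167).

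Nrp1 (ENSRNOG00000010744), the co-receptor, was the other gene that fell with diabetes. Its RefSeq window on chromosome 19 (GRCr8, plus strand, chr19:73256307-73256606) is shown beside that of Vegfa because both genes fell. It has no capitals, since the GC box, the hypoxia core, the cyclic AMP response element TGACGTCA and the TATA box TATAAA were each found 0 times on either strand.
Nrp1: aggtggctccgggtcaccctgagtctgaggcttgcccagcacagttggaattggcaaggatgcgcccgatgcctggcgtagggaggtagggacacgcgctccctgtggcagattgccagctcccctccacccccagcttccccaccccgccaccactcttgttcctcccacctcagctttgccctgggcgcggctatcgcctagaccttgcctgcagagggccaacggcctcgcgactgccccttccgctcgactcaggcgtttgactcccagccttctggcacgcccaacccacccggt
It holds 66.3% G and C, against 63.3% in the Vegfa window and a median of 51.7% over all windows.

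Nrp1 in WT control hearts was 186, 179, 175, 175 and 189 CPM in replicates 1 to 5, and in WT diabetic hearts 136, 112, 142, 109 and 101 CPM. In VegfbKO control hearts it was 174, 201, 175, 189 and 188 CPM, and in VegfbKO diabetic hearts 144, 157, 122, 138 and 168 CPM. In each genotype every diabetic heart lay below every control heart. In WT this held under the other 3 scalings too. In VegfbKO it held with DESeq2 size factors. The VegfbKO groups overlapped as CPM of the whole count without TMM, at 166 to 198 in control and 100 to 187 in diabetic hearts. They also overlapped with the 2 high IDs removed and no TMM, at 189 to 228 and 146 to 210. The group means were 181 ± 6.44 CPM in WT control, 120 ± 17.8 CPM in WT diabetic, 186 ± 11.1 CPM in VegfbKO control and 146 ± 17.5 CPM in VegfbKO diabetic hearts (SD, n = 5 each). The spread was wider in diabetic than in control hearts, with a coefficient of variation of 14.9% and 12% against 3.56% and 6%, and this difference in spread was not tested.

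With diabetes, Nrp1 fell by 33.6% in WT hearts, a log2 fold change of -0.59 (SE 0.09, interval -0.78 to -0.40, edgeR adjusted p = 0.000106). In VegfbKO hearts it fell by 21.4%, a log2 fold change of -0.35 (SE 0.09, interval -0.54 to -0.16, edgeR adjusted p = 0.0198). The call in VegfbKO rested on single rats. It was lost without VegfbKO control replicate 2 (log2 fold change -0.32, edgeR adjusted p = 0.0604), VegfbKO diabetic replicate 3 (-0.29, adjusted p = 0.0803) or VegfbKO diabetic replicate 4 (-0.32, adjusted p = 0.0556). Without both libraries that stood apart it was -0.57 in WT (edgeR adjusted p = 0.000463) and -0.35 in VegfbKO (edgeR adjusted p = 0.0282).

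**Figure D2:**
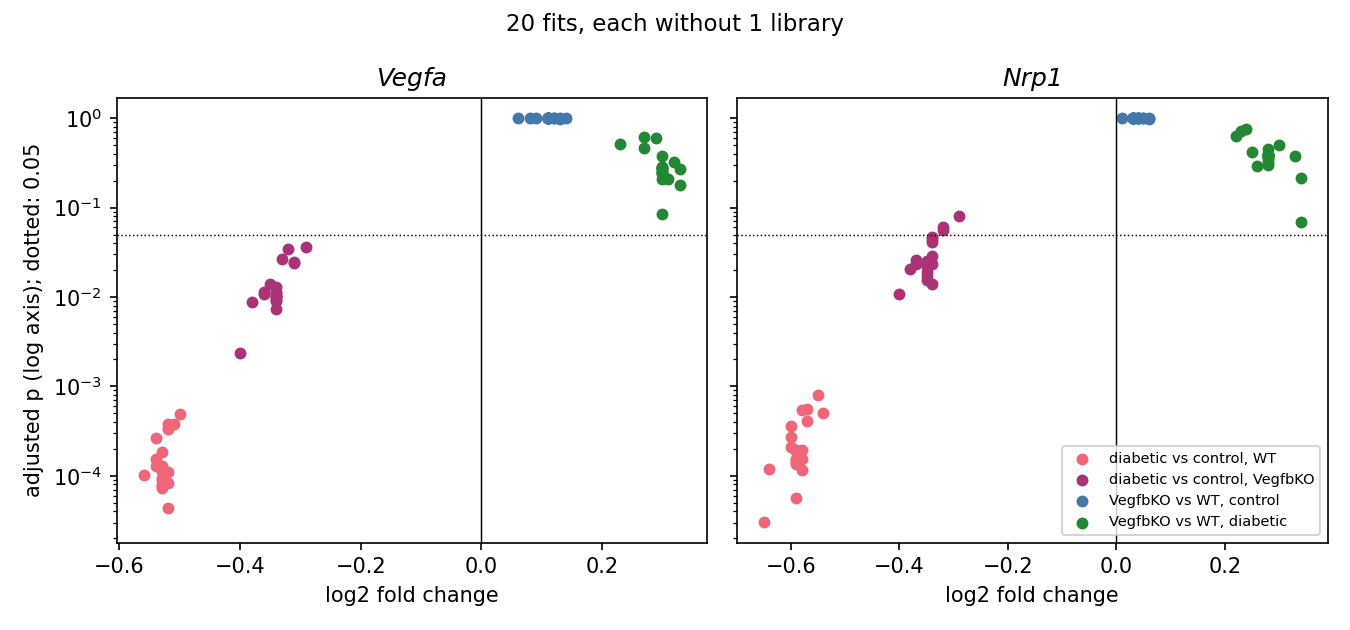
Log2 fold change (horizontal) against the edgeR adjusted p (vertical, log axis, dotted line at 0.05) of Vegfa and Nrp1 in 20 fits that each left out 1 library, with 4 comparisons in colour. Vegfa stays below the line in all 20 fits for diabetes in both genotypes, and no fit puts a comparison of genotypes below it. Nrp1 in VegfbKO crosses it in 3 of 20, each without a VegfbKO library. Each comparison is of 10 libraries, so a fit without any other library keeps all the rats compared.

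Flt1 (ENSRNOG00000000940), the receptor shared by VEGFA and VEGFB, was not called in any comparison. Its window on chromosome 12 (RefSeq, GRCr8, plus strand, chr12:12333180-12333479) is printed because Flt1 is a receptor that loses a ligand in VegfbKO rats. Capitals mark the GC box, here on the other strand as CCGCCC, at positions -201, -185 and -63, then a cyclic AMP response element at -124 and a TATA box at -75.
Flt1: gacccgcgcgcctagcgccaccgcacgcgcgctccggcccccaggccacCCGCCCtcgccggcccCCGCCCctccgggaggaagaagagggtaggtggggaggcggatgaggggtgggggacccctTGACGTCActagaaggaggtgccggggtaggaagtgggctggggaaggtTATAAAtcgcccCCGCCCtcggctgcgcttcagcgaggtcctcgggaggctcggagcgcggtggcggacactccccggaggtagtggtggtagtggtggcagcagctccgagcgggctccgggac
A full cyclic AMP response element was in 1.83% and a TATA box in 14.2% of all windows. These matches are descriptions of the sequence, and none of the motifs overlap here.

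Flt1 in WT control hearts was 106, 93.2, 87.5, 110 and 96.6 CPM in replicates 1 to 5, and in WT diabetic hearts 114, 122, 95.7, 89.6 and 95.8 CPM. In VegfbKO control hearts it was 93.2, 85, 85, 91.1 and 80 CPM, and in VegfbKO diabetic hearts 76.7, 83.3, 106, 88.9 and 88.2 CPM. All groups overlapped. The order of the means was WT diabetic (103 ± 13.7 CPM), WT control (98.6 ± 9.22 CPM), VegfbKO diabetic (88.7 ± 11.1 CPM) and VegfbKO control (86.8 ± 5.27 CPM, SD, n = 5 each), and all neighbours in this order overlapped. With diabetes the log2 fold change of Flt1 was 0.06 in WT (interval -0.13 to 0.26, edgeR adjusted p = 0.714) and 0.03 in VegfbKO (interval -0.16 to 0.23, edgeR adjusted p = 0.879). The sign of both changed when 1 library was left out, to -0.00 without WT diabetic replicate 2 and to -0.04 without VegfbKO diabetic replicate 3. No direction is therefore given.

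Kdr (ENSRNOG00000046829), the main signalling receptor of endothelium, was likewise not called. Its window (RefSeq, GRCr8, chr14:32571813-32572112, plus strand) holds 1 GC box, at -59, and 61.0% G and C. The Kdr level ranged from 72.1 to 117 CPM in WT diabetic hearts and from 87.6 to 113 CPM in the other 3 groups. The lowest values of all 20 libraries were those of WT diabetic replicates 4 and 5, at 80 and 72.1 CPM. The means were 104 ± 5.03 CPM in WT control, 94.7 ± 18.2 CPM in WT diabetic, 99.6 ± 7.85 CPM in VegfbKO control and 105 ± 8.89 CPM in VegfbKO diabetic hearts (SD, n = 5 each). With diabetes the log2 fold change was -0.13 in WT (interval -0.34 to 0.08, edgeR adjusted p = 0.442) and 0.07 in VegfbKO (interval -0.14 to 0.28, edgeR adjusted p = 0.759). The WT value rested on single rats. It was -0.22 without WT diabetic replicate 2 (edgeR adjusted p = 0.154), -0.07 when WT diabetic replicate 4 was left out and -0.05 when replicate 5 was (edgeR adjusted p = 0.806), and limma gave -0.22 (adjusted p = 0.084). Without both libraries that stood apart it was -0.22 in WT (edgeR adjusted p = 0.138) and 0.03 in VegfbKO (edgeR adjusted p = 0.88). Over the 20 fits without 1 library the VegfbKO value lay between 0.03 and 0.11, and limma gave 0.02.

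Whether Vegfb loss moved the other genes was tested between genotypes, first in control hearts. None of the 4 genes was called, where edgeR called 0.028% of all genes, 3.69% had an unadjusted p under 0.05 and 1.02% did not overlap between the groups. The log2 fold change of Vegfa was 0.11 (interval -0.05 to 0.28), a change of 7.97% with an interval from -3.73% to 21.1%, and it was 0.06 without VegfbKO control replicate 5. It was -0.19 for Flt1 (interval -0.38 to 0.01), -0.06 for Kdr (interval -0.27 to 0.15) and 0.04 for Nrp1 (interval -0.15 to 0.23). With 1 library left out, Kdr lay between -0.08 and -0.01 and Nrp1 between 0.01 and 0.06, with Kdr nearest 0 without VegfbKO control replicate 3 and Nrp1 without VegfbKO control replicate 2. The edgeR adjusted p was 0.9999 for each. All of the intervals include 0, so no difference was detectable in control hearts at this number of rats.

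In diabetic hearts, Vegfa was 23% higher in VegfbKO than in WT by the fitted values, and this was not called. Its log2 fold change was 0.30 (SE 0.08, interval 0.13 to 0.46), with an edgeR p of 0.00107 before and 0.234 after adjustment. It ranked 65 by p among the 14293 genes, and every VegfbKO diabetic heart lay above every WT diabetic heart, as for 0.986% of all genes that did not overlap in one direction or the other. DESeq2 gave 0.29 and an adjusted p of 0.0326, past the threshold, in a fit that called 68 genes. The other 7 alternatives and the 20 fits without 1 library did not call it, with adjusted p-values from 0.066 with limma, where the log2 fold change was 0.35, to 0.615. Without WT diabetic replicate 3 the edgeR adjusted p was 0.0849. The gap between the ranges, 301 to 331 CPM in WT and 354 to 457 CPM in VegfbKO, depended on the scaling. As CPM of the whole count without TMM, a scaling chosen after the data were seen, the ranges were 240 to 368 and 254 to 509 and overlapped. They also overlapped with the 2 high IDs removed and no TMM (343 to 421 and 371 to 572), and did not overlap as counts divided by DESeq2 size factors (5540 to 6070 and 6470 to 8350). Without both libraries that stood apart the log2 fold change was 0.33 (edgeR adjusted p = 0.323).

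Nrp1 had a log2 fold change of 0.28 between diabetic hearts of the genotypes (interval 0.09 to 0.47, edgeR adjusted p = 0.339) and overlapping ranges. For Flt1 it was -0.21 (interval -0.41 to -0.02, edgeR adjusted p = 0.516), and -0.11 without both libraries that stood apart (edgeR adjusted p = 0.727). For Kdr it was 0.14 (interval -0.07 to 0.35, edgeR adjusted p = 0.712), and 0.06 without WT diabetic replicate 5 or 0.23 without WT diabetic replicate 2. By unadjusted p, 3 of the 4 genes (Vegfa, Nrp1 and Flt1) were under 0.05, where 8.99% of all genes were. After adjustment 0 of the 4 were called, and edgeR called 0.042% of all genes. That share is 6 genes, and without WT diabetic replicate 3 it was 181, while 2 to 7 were called without any other single library.

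Averaged over control and diabetic hearts, the genotype difference was 0.20 for Vegfa (interval 0.09 to 0.32, edgeR adjusted p = 0.256) and -0.20 for Flt1 (interval -0.34 to -0.06, edgeR adjusted p = 0.407). For Nrp1 it was 0.16 (interval 0.02 to 0.29, edgeR adjusted p = 0.56) and for Kdr 0.04 (interval -0.11 to 0.19, edgeR adjusted p = 0.925). The Kdr value was 0.09 when WT diabetic replicate 2 was left out, 0.01 when replicate 4 was and 0.00 when replicate 5 was, and limma gave 0.09. The ligand and the co-receptor thus had positive and Flt1 negative estimates, and none was called, where edgeR called 0.126% of all genes, 18 in number and 75 without WT diabetic replicate 3. Before adjustment 3 of the 4 genes (Vegfa, Flt1 and Nrp1) were under 0.05, against 7.93% of all genes. This average uses the same rats as the separate comparisons and is no further evidence for them.

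The difference between the genotypes in the response to diabetes was tested as an interaction. Its log2 value was 0.19 for Vegfa (interval -0.05 to 0.42), 0.25 for Nrp1 (interval -0.02 to 0.52), 0.20 for Kdr (interval -0.10 to 0.50) and -0.03 for Flt1 (interval -0.30 to 0.25). The edgeR adjusted p was 0.9998 for each. The smaller estimates of the fall of Vegfa and Nrp1 in VegfbKO are therefore not shown to differ from those in WT. Of all genes edgeR called 0, a share of 0%, DESeq2 0 and limma 0, while 600 genes, or 4.2%, had an unadjusted edgeR p under 0.05. The Vegfa value was 0.12 without VegfbKO diabetic replicate 5, and that of Kdr was 0.12 when WT diabetic replicate 5 was left out and 0.29 when replicate 2 was. For Flt1 the sign changed to 0.08 without both libraries that stood apart and to 0.02 with limma.

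**Figure D3:**
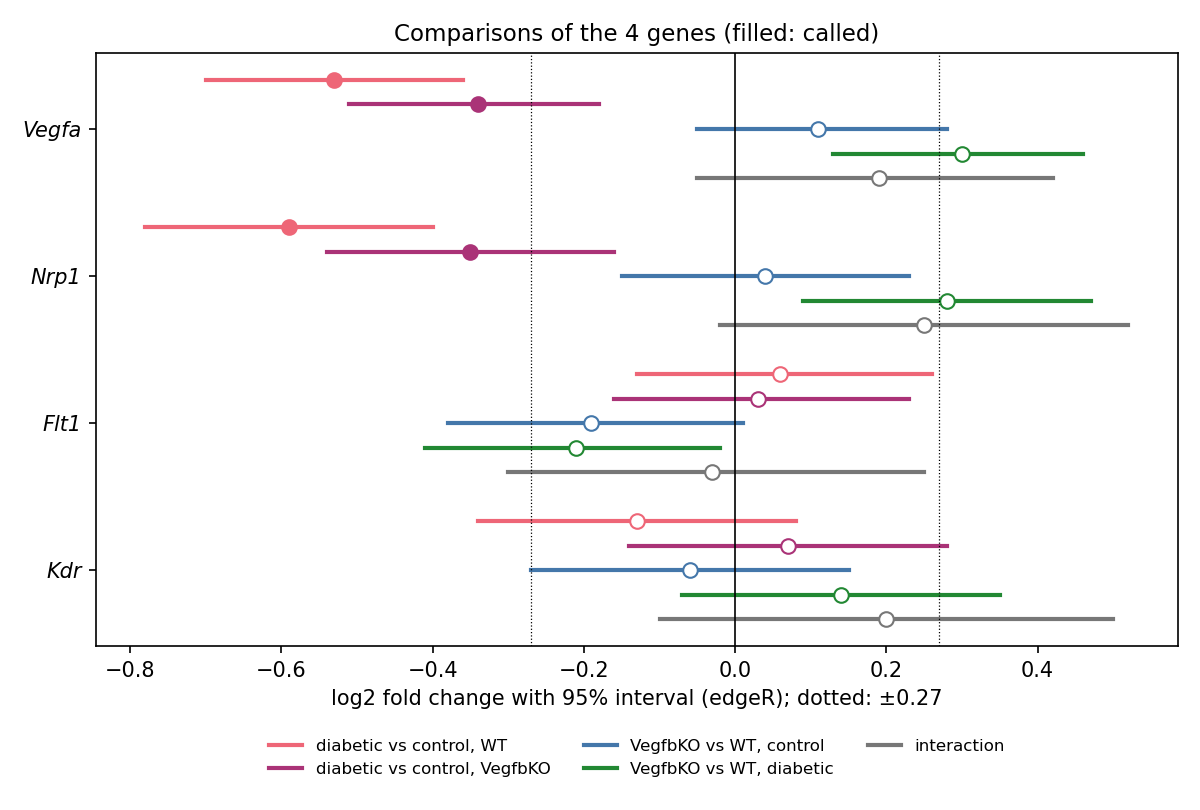
Log2 fold change (horizontal) with its 95% interval from edgeR for 5 comparisons of each gene, filled where called and with dotted lines at 0.27 on either side of 0. The filled points are those of Vegfa and Nrp1 with diabetes, from -0.59 to -0.34, and the comparisons of genotypes are open for all 4 genes.

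Ratios within a library do not depend on the scaling between libraries, and only differences of a ratio between groups are read, since gene lengths were not used. The Flt1 to Kdr ratio weighs a receptor of VEGFB against the main VEGFA receptor. It was 0.955 ± 0.115 in WT control, 1.11 ± 0.144 in WT diabetic, 0.878 ± 0.0981 in VegfbKO control and 0.855 ± 0.132 in VegfbKO diabetic hearts (SD, n = 5 each). Between diabetic hearts its log2 value differed by an estimated -0.38, lower in VegfbKO (exact permutation test, two-sided, p = 0.0238, and 0.0952 adjusted over the 4 pairs of groups). The ranges, 0.933 to 1.33 and 0.679 to 0.978, overlapped. The other 3 pairs differed by -0.12 between controls, 0.21 with diabetes in WT and -0.05 with diabetes in VegfbKO (exact permutation tests, adjusted p = 0.381, 0.222 and 0.714). The value between controls was -0.06 without WT control replicate 4 and -0.07 without VegfbKO control replicate 5, and that with diabetes in VegfbKO changed sign, to 0.03, without VegfbKO diabetic replicate 1.

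The Vegfa to Kdr ratio sets the ligand against that receptor. It was 4.45 ± 0.235 in WT control, 3.45 ± 0.576 in WT diabetic, 5.01 ± 0.473 in VegfbKO control and 3.8 ± 0.745 in VegfbKO diabetic hearts (SD, n = 5 each). With diabetes the log2 value differed by -0.38 in WT and by -0.42 in VegfbKO (exact permutation tests, two-sided, p = 0.0159 and 0.0317, adjusted p = 0.0635 for each). Between genotypes it differed by 0.17 in controls and 0.13 in diabetic hearts (exact permutation tests, adjusted p = 0.0741 and 0.429). The value in diabetic hearts was 0.21 without WT diabetic replicate 5, 0.06 without WT diabetic replicate 2 or VegfbKO diabetic replicate 4, and 0.05 without VegfbKO diabetic replicate 5. No comparison passed the adjustment, and in each the groups overlapped. With 5 rats against 5 the smallest p this test can give is 0.00794.

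**Figure D4:**
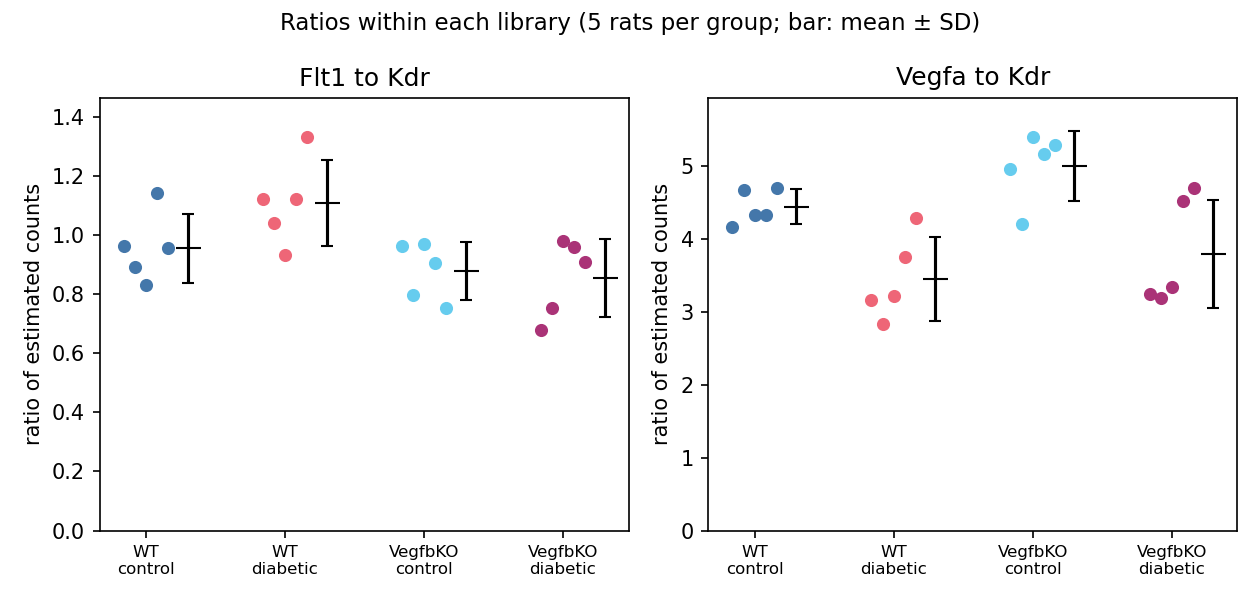
Ratios of estimated counts within each library for Flt1 to Kdr and Vegfa to Kdr (vertical axes, from 0), 1 point per rat, with the mean and SD of 5 rats beside the points. The Vegfa to Kdr means are 3.45 and 3.8 in the diabetic groups and 4.45 and 5.01 in the control groups, and the points overlap in each comparison.

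Whether the 4 genes varied together among rats of the same group was examined with the deviations of log2 CPM from the group means, over 20 rats and 6 pairs of genes. Kdr and Nrp1 had the highest Pearson r, 0.42 (permutation test, p = 0.223, adjusted p = 0.627; Spearman's rho 0.47, p = 0.114, adjusted p = 0.683), and r was 0.44 without the 2 rats farthest from the median of Kdr. Vegfa and Nrp1 had r = 0.34 (permutation test, p = 0.184, adjusted p = 0.627; rho 0.25, p = 0.318, adjusted p = 0.953), and 0.18 without the 2 farthest rats. For Flt1 and Kdr it was 0.31 (permutation test, p = 0.313, adjusted p = 0.627; rho 0.09, p = 0.732, adjusted p = 0.96), and 0.07 without the 2 farthest rats. The remaining 3 pairs lay between -0.15 and 0.07, and without the 2 farthest rats r turned from -0.15 to 0.19 for Flt1 and Nrp1, from -0.04 to 0.07 for Vegfa and Flt1, and was 0.12 for Vegfa and Kdr. Without both libraries that stood apart, r was 0.63 for Kdr and Nrp1 (permutation test, adjusted p = 0.56) and -0.22 for Vegfa and Flt1 (permutation test, adjusted p = 0.803). No pair passed the adjustment in any of the settings tested. Vegfa and Nrp1 fell together between groups, while within groups no relation was detectable with these rats.

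**Figure D5:**
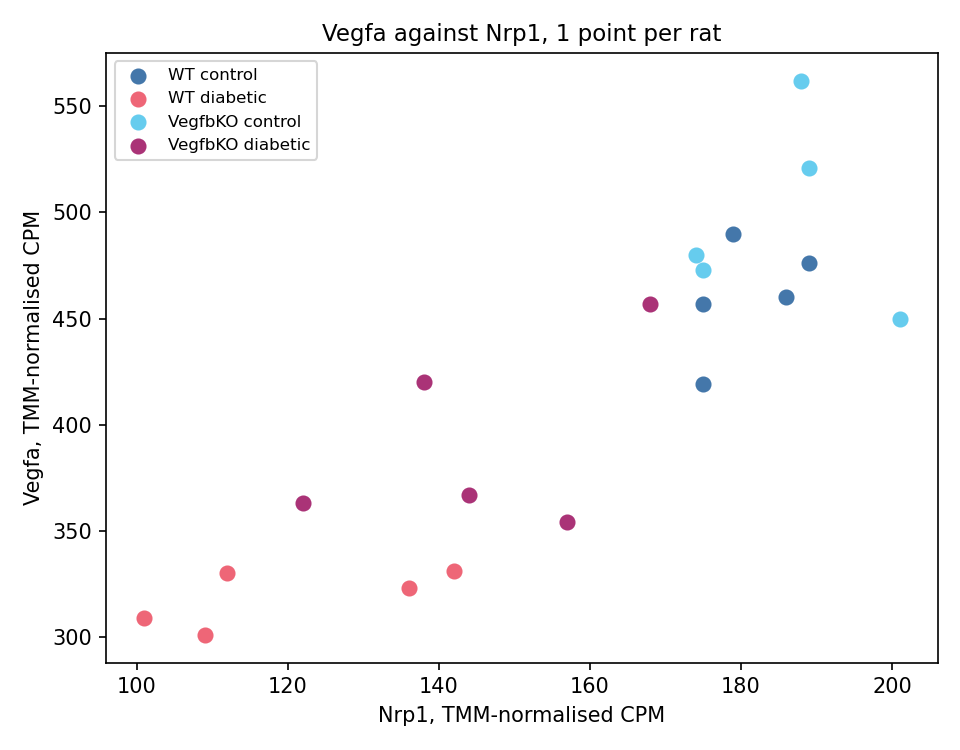
Vegfa against Nrp1, both in TMM-normalised CPM, 1 point per rat and 1 colour per group. Diabetic and control rats lie apart on the Nrp1 axis, at 101 to 168 and 174 to 201, and overlap on the Vegfa axis, where VegfbKO diabetic hearts reach 457 and WT control hearts start at 419. The groups form clusters, so no pooled correlation is given.

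The genes whose deviations were most like those of each of the 4 were ranked among 12767 genes with a mean of at least 1 CPM, over the 20 libraries and as a description. For Kdr the nearest was ENSRNOG00000005076, with r = 0.92, and for Nrp1 ENSRNOG00000010872, with r = 0.87. The highest r was 0.87 for Flt1 and 0.78 for Vegfa, with IDs that the files do not name. Each of these values is the highest of 12767, a choice that by itself raises r. How much of each r comes from that choice was not tested. The 4 genes were not near each other in these rankings. Kdr ranked 812 for Nrp1, the closest of these ranks, and Flt1 ranked 9102 for Nrp1, the farthest.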

How the data were processed

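Ventricular RNA of 20 rats was sequenced as paired reads from stranded libraries. The authors deposited estimated counts per Ensembl gene ID, not whole numbers, and their notes name kallisto and the rat build mRatBN 7.2. Reads were aligned to the rat transcriptome by several pipelines, and edgeR and DESeq2 were used for differential expression. Which pipeline gave the counts is not given in the sources used here. The counts were rounded to whole numbers. The low-count filter (filterByExpr) left 14293 of 24059 IDs. R 4.3.3 with edgeR 4.0.16 fitted 4 group means to all 20 libraries (TMM, robust quasi-likelihood test, Benjamini-Hochberg over all genes tested), after the script was tested on simulated data. CPM are TMM-scaled. Log2 CPM for correlations used a prior count of 2. Ratios were compared with exact permutation tests over rats and correlations with 100000 permutations within groups (Python 3.11.15, scipy 1.17.1). Figures were drawn with matplotlib 3.10.9.

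Alternatives were DESeq2 1.42.0, limma 3.58.1 (voom with sample quality weights), DESeq2 size factors, removal of the 2 IDs over 10% of a library, no filter, only the 10 libraries compared, a replicate block, and leaving out libraries. Other scalings of the ranges (whole count and high IDs removed, both without TMM, and DESeq2 size factors) were added after seeing the data. No libraries of 1 group were near enough to be duplicates (lowest chi-square per gene 5.92). The genes named are the 4 members, the IDs most like each and 1 ID singled out for its values. The members and lists were chosen with earlier results of these data known. Of the RefSeq genes of GRCr8, 0 carried an Ensembl ID. Lists of pathway genes and cell type markers were therefore not matched, so the tissue label and the cell makeup were not checked here. Names of the 4 genes come with the IDs chosen, and 4 of 4 matched a RefSeq promoter by symbol.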

Additional observations from a re-analysis of the deposited data

How the results depend on the processing

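Over all results and alternatives, 829 values kept their direction and side of the threshold, 3 lost a call, 9 gained one and 11 changed sign, the last all for Flt1 or its ratio to Kdr (correlations without the 2 farthest rats are not counted here); the cause was not tested. Many of the kept values come from fits without a library that the comparison does not use. The fall of Vegfa with diabetes was called under every alternative run. With each library left out in turn it was -0.56 to -0.50 in WT and -0.40 to -0.29 in VegfbKO. That of Nrp1 ranged from -0.65 to -0.54 in WT and, losing its call without 3 libraries in turn, from -0.40 to -0.29 in VegfbKO. DESeq2 called Vegfa between diabetic hearts (0.29, adjusted p = 0.0326, range over all 8 such alternatives 0.0326 to 0.523). Averaged over both states it put Vegfa at 0.20 (adjusted p = 0.0336) and limma at 0.24 (adjusted p = 0.0476), both under the fold threshold. For Flt1 the interaction was 0.02 with limma, 0.08 without both libraries that stood apart and -0.10 to 0.04 with each library left out. Its change with diabetes in WT was -0.01 without both and -0.00 to 0.12 with each left out, and in VegfbKO -0.04 to 0.09. The Flt1 to Kdr log2 difference with diabetes in VegfbKO was 0.03 without both and -0.10 to 0.03 with each left out. The Vegfa to Kdr differences passed the adjustment in some fits without 1 library. With diabetes in WT they were -0.46 to -0.31, and passed without WT diabetic replicate 5. The WT difference also passed without VegfbKO control replicate 2 or VegfbKO diabetic replicate 4 or 5, rats that it does not compare. In those fits it stayed at -0.38 (exact permutation test, p = 0.0159), and only the adjustment over the 4 pairs of groups moved. With diabetes in VegfbKO they were -0.50 to -0.36 (passed without VegfbKO control replicate 2 or VegfbKO diabetic replicate 4 or 5). Between controls they were 0.14 to 0.23 (passed without VegfbKO control replicate 2). Genes called in all numbered 1876 with diabetes in WT and 2819 with limma, and 1121 in VegfbKO and 643 without VegfbKO diabetic replicate 3. Between diabetic hearts they numbered 6, against 68 with DESeq2, 28 with limma, 3 with only the 10 libraries and 2 to 181 with each left out, the highest without WT diabetic replicate 3. Averaged over both states they numbered 18, against 59 with DESeq2, 71 with limma, 9 with the block and 7 to 75 with each left out, the highest again without WT diabetic replicate 3. Replicate numbers were not taken to pair the rats, since the labels tie them to no litter or batch and deviations of same-numbered libraries correlated at -0.26 to 0.26, not all over 0.1. In WT control and VegfbKO diabetic hearts 4 of 5 pairs correlated best with their own number, a hint from the data and not the design, and in the other 5 pairs of groups 0 to 2 did. A replicate block gave -0.53 for Vegfa in WT (edgeR adjusted p = 0.000191) and -0.34 in VegfbKO (edgeR adjusted p = 0.0116), and changed no call of the 4 genes. How far depth limits these values was not tested. For the ratios a block of 5 pairs cannot give a p under 0.0625.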
